A study of Homo sapiens with 6 samples.

Results

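The genes described here encode the splicing factors of 9 families. They include the SR proteins (SRSF), the heterogeneous nuclear ribonucleoproteins (HNRNP) and the SF3A and SF3B subunits of the U2 particle. Further families are the U2AF proteins, which bind the 3′ splice site, and the regulators ESRP, CELF, MBNL and PTBP. Members were all rows of the deposited table whose symbol begins with one of these family names, without pseudogenes and antisense transcripts. The name rule matched 72 rows. After 8 pseudogene and antisense rows were left out, 64 of the table's 26228 rows remained, namely 12 SRSF, 26 HNRNP, 3 SF3A, 6 SF3B, 3 U2AF, 2 ESRP, 6 CELF, 3 MBNL and 3 PTBP genes. Of these, 53 reached 1 FPKM in at least 3 of the 6 libraries and were tested, 10 stayed below that level, and HNRNPF had no value in vehicle replicate 1, where the table marks a failed estimate. Below, the libraries of each group are given in the order of their replicate numbers, which rank nothing.

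RNA came from AsPC-1, an established human pancreatic cancer cell line, kept for 24 h without serum in the presence of DON, short for 6-diazo-5-oxo-L-norleucine (3 libraries), or of vehicle (3 libraries). DON resembles glutamine and blocks enzymes that use its amide nitrogen. The dose and the nature of the vehicle are not given in the labels. Levels come from poly(A) RNA and are FPKM, fragments scaled to transcript length and to the mapped total. Nothing in the labels tells whether replicates were separate cultures, so p-values reflect variation among these 6 samples alone, some or all of which may be technical.

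Before the members are described, the line was set against marker genes. Of 10 epithelial markers, 9 averaged at least 1 FPKM, with EPCAM at 1058 FPKM in DON and 1089.97 FPKM in vehicle. GRHL2, an epithelial transcription factor, stayed at or below 0.0538 FPKM in every library. Of 10 mesenchymal markers 3 averaged at least 1 FPKM: VIM (1230.2 FPKM in DON and 1125 FPKM in vehicle), ZEB1 and SNAI2. Of 8 immune and endothelial markers 1 did, LYZ, at 98.5 FPKM in DON and 250.3 FPKM in vehicle. PTPRC, the pan-leukocyte marker, stayed at or below 0.258 FPKM, and CD3E was at the floor throughout.

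Splicing factors decide which exons of a transcript are joined. The spliceosome recognises an intron when the U1 particle binds the 5′ splice site, U2AF binds the pyrimidine tract and the AG at the 3′ splice site, and the U2 particle with SF3A and SF3B binds the branch point. SR proteins carry RNA recognition motifs and an arginine-serine tail, bind exonic enhancers and mostly favour inclusion of the exon. The hnRNP proteins coat nascent RNA and often act against them at exonic and intronic silencers, and ESRP, MBNL, CELF and PTBP proteins set tissue-specific choices. Many of these genes also control their own level through a poison exon or a retained intron, whose inclusion sends the transcript to nonsense-mediated decay. FPKM per gene does not show which exons were joined, so the values below are RNA levels of the factors and not splicing outcomes.

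Of the 53 tested members, 20 differed between DON and vehicle, 5 higher and 15 lower in DON (limma on log2(FPKM + 1), Benjamini-Hochberg adjusted p under 0.05 over all 11471 tested genes). In bulk RNA, fewer cells of a type and less RNA per cell cannot be told apart. Over all tested genes 38.9% were called, so the members' share of 37.7% was near the background. By direction, the 15 lower members were 28.3% of those tested, beside 20.6% of all tested genes, and the 5 higher members were 9.43%, beside 18.3%. The fitted change was below 0 in 34 of the 53 members, beside 51.2% of all tested genes. The median log2 fold change was -0.17 over the members and -0.01 over all tested genes. Values of the 3 DON and 3 vehicle libraries did not overlap in 30 of the 53 members (56.6%), beside 51.5% of all tested genes. A change of at least 2-fold on the log2(FPKM + 1) scale was called for SRSF2, SRSF7 and HNRNPAB, 3 of 53, beside 6.99% of all tested genes. All 3 were lower in DON. Among the families, SRSF had 5 lower and 0 higher of 11 tested, HNRNP 7 lower and 1 higher of 21, SF3B 1 lower and 2 higher of 6, and U2AF 1 lower and 0 higher of 3. ESRP had 1 lower and 1 higher of 2, MBNL 0 lower and 1 higher of 3, and none of the 3 SF3A, 3 PTBP and 1 tested CELF gene was called by limma. Without DON replicate 2, 14 members were called, 3 higher and 11 lower, and 2697 of all tested genes. With a split term, for 2 library sets described below, 33 members were called, 9 higher and 24 lower, and 6031 of all tested genes. Those sets were known from these same data, so the added calls are no independent support. At an unadjusted limma p under 0.05, 29 of the 53 members passed, beside 48.9% of all tested genes. Of the 7 SF3A, PTBP and CELF genes, SF3A3 and CELF1 were among them.

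**Figure D1:**
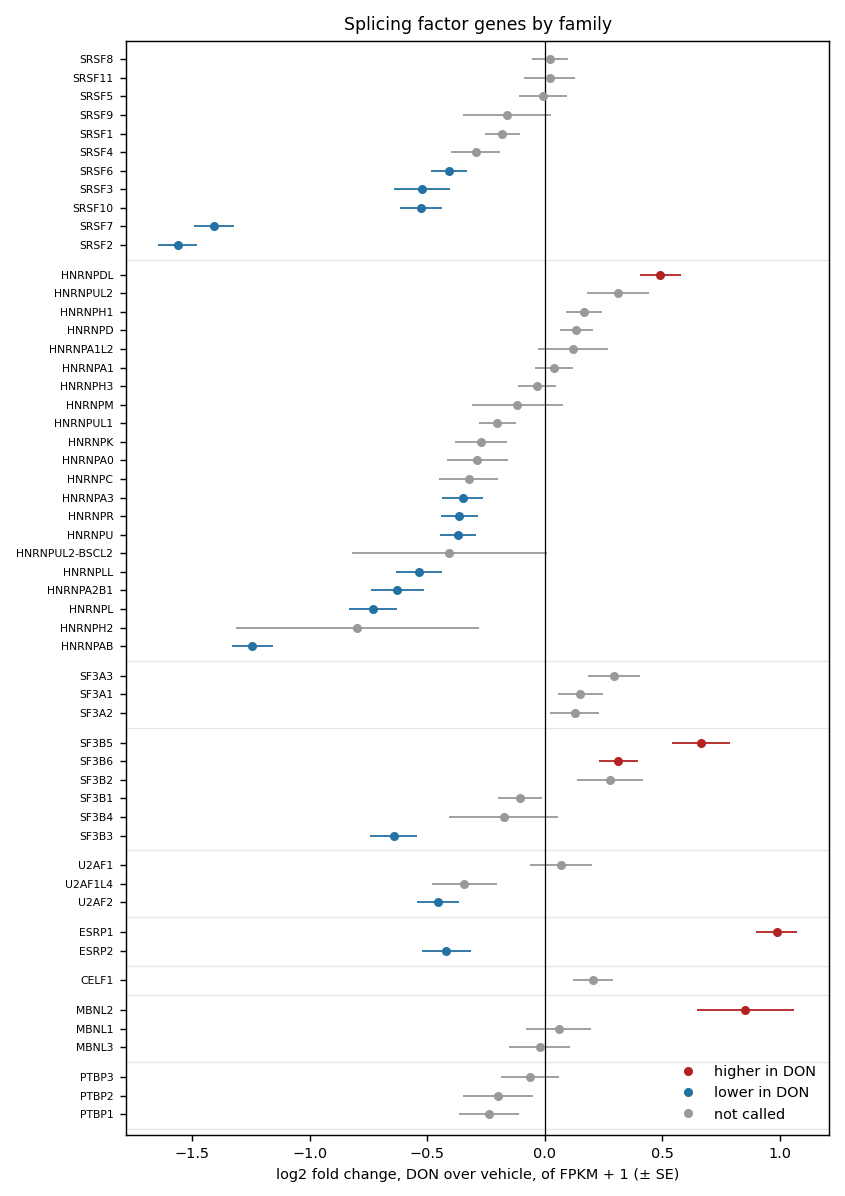
Log2 fold change of FPKM + 1, DON over vehicle, with its standard error for the 53 tested members grouped by family (3 libraries per group). SRSF2, SRSF7 and HNRNPAB lie farthest to the left, ESRP1 and MBNL2 farthest to the right, and the SRSF family has no member called higher.

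Of the SR protein genes, 5 fell and 6 did not pass the test. SRSF2, also known as SC35, is an SR protein that stays in the nucleus. It had 63.7, 60.2 and 56.7 FPKM in the DON libraries, against 187, 182 and 171 FPKM in the vehicle libraries. Every DON value lay below every vehicle value, and the level was 2.99-fold lower in DON (log2 fold change -1.56 ± 0.08 SE, limma adjusted p = 5.22e-05). By signed change it ranked 132 from the bottom among 11471 tested genes. SRSF7, also known as 9G8, is an SR protein with a zinc knuckle that also takes part in mRNA export. It had 31.3, 28.5 and 27.8 FPKM in the DON libraries, against 82.1, 80.5 and 74.9 FPKM in the vehicle libraries. The groups lay far apart, with a level 2.71-fold lower in DON (log2 fold change -1.41 ± 0.09 SE, limma adjusted p = 8.41e-05). Its rank from the bottom was 183.

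Smaller falls were called for SRSF10, SRSF3 and SRSF6. SRSF10, a splicing repressor when dephosphorylated, had 26.6, 25 and 24.6 FPKM in the DON libraries, against 40.4, 34.6 and 36.3 FPKM in the vehicle libraries (log2 fold change -0.53 ± 0.09 SE, limma adjusted p = 0.00429). All DON values were again the lower ones. SRSF3, the smallest SR protein, had 129, 120.2 and 102 FPKM in the DON libraries, against 181, 174 and 149.8 FPKM in the vehicle libraries (log2 fold change -0.52 ± 0.12 SE, limma adjusted p = 0.0137). That call was lost without vehicle replicate 1 (adjusted p = 0.0509), without vehicle replicate 2 (adjusted p = 0.0507) and without a filter on low values (adjusted p = 0.0677). SRSF6, a regulator of many alternative exons, had 52, 53.5 and 56.2 FPKM in the DON libraries, against 72.2, 69.2 and 74.1 FPKM in the vehicle libraries (log2 fold change -0.41 ± 0.08 SE, limma adjusted p = 0.00632). Its libraries were tight within each group, and the call held whichever library was left out.

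The other 6 tested SRSF genes did not pass the test. SRSF1, the founding SR protein (ASF/SF2), had 56.9, 60.2 and 55.7 FPKM in the DON libraries, against 65.4, 66.9 and 63.8 FPKM in the vehicle libraries (limma adjusted p = 0.0981). Its groups did not overlap, and it passed as lower with a correction for GC content (adjusted p = 0.0314). SRSF4 averaged 18.3 ± 0.744 FPKM in DON and 22.8 ± 2.67 FPKM in vehicle (SD, n = 3 each; limma adjusted p = 0.0603). SRSF5, SRSF8 and SRSF11 overlapped between the groups, with log2 fold changes of -0.0074, 0.02 and 0.02. SRSF8 is an expressed intronless copy of SRSF2. It had 24.2, 25.8 and 25.1 FPKM in the DON libraries, against 25, 23.7 and 25.1 FPKM in the vehicle libraries (limma adjusted p = 0.826). Its groups overlapped, and reads from the stretches it shares with SRSF2 could be assigned to either gene. SRSF9, the most abundant SRSF gene per length, had 249, 183 and 174 FPKM in the DON libraries, against 243, 258 and 177 FPKM in the vehicle libraries, and its groups overlapped. SRSF12 was listed at or near the floor of 0.01 FPKM in every library, with 0.0148 FPKM as its highest value.

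**Figure D2:**
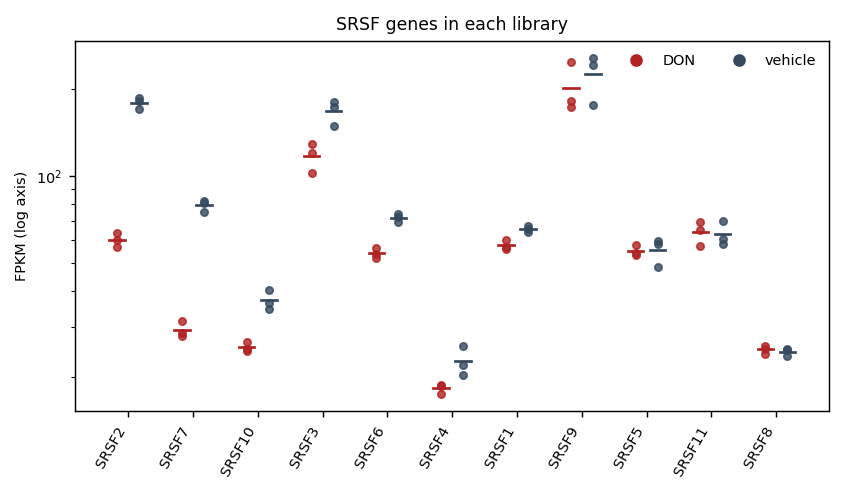
FPKM (log axis) of the 11 tested SRSF genes in each DON and vehicle library, ordered by log2 fold change, with bars at the group means (3 libraries per group). For SRSF2 the 3 DON values lie between 56.7 and 63.7 FPKM and the 3 vehicle values between 171 and 187 FPKM, while SRSF8 and SRSF5 overlap.

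Among the hnRNP genes 7 fell and 1 rose. Without DON replicate 2, 4 were called lower. HNRNPAB encodes a protein that binds RNA and single-stranded DNA. It had 61.9, 67 and 70.6 FPKM in the DON libraries, against 152, 156 and 168 FPKM in the vehicle libraries. No value was shared between the groups, and the level was 2.39-fold lower in DON (log2 fold change -1.25 ± 0.09 SE, limma adjusted p = 0.000128). HNRNPL, which binds CA-rich elements, had 77.2, 73.9 and 69.4 FPKM in the DON libraries, against 126, 134 and 109 FPKM in the vehicle libraries (log2 fold change -0.73 ± 0.10 SE, limma adjusted p = 0.00184). Its close relative HNRNPLL, known for CD45 exon choice in lymphocytes, had 16.2, 17.7 and 17.9 FPKM in the DON libraries, against 28.5, 23.4 and 24.8 FPKM in the vehicle libraries (log2 fold change -0.54 ± 0.10 SE, limma adjusted p = 0.00601). Both relatives thus lay lower in all 3 DON libraries. HNRNPA2B1, an abundant hnRNP that also binds m6A-marked RNA and sorts RNA into exosomes, had 265, 237 and 234 FPKM in the DON libraries, against 392, 419 and 331 FPKM in the vehicle libraries (log2 fold change -0.63 ± 0.11 SE, limma adjusted p = 0.00531).

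HNRNPU, also called SAF-A and part of the nuclear scaffold, had 86.3, 81.1 and 81 FPKM in the DON libraries, against 109.97, 108 and 104 FPKM in the vehicle libraries (log2 fold change -0.37 ± 0.08 SE, limma adjusted p = 0.00865). The antisense row HNRNPU-AS1, not a member, lay between 5.48 and 6.83 FPKM. HNRNPR had 18.4, 18.9 and 20.2 FPKM in the DON libraries, against 25.2, 24.5 and 25.1 FPKM in the vehicle libraries (log2 fold change -0.36 ± 0.08 SE, limma adjusted p = 0.0108). The calls of HNRNPU and HNRNPR were lost without DON replicate 2, at adjusted p of 0.0511 and 0.0569. HNRNPA3, a relative of HNRNPA1, averaged 40.2 ± 1.72 FPKM in DON and 51.6 ± 3.79 FPKM in vehicle (SD, n = 3 each; limma adjusted p = 0.0192). Its call was lost without DON 2 (adjusted p = 0.0864), DON 3 (adjusted p = 0.0651), vehicle 1 (adjusted p = 0.0628) or vehicle 2 (adjusted p = 0.0704). The gene that rose was HNRNPDL, a relative of HNRNPD that regulates transcription and splicing. It had 72, 77.9 and 80.6 FPKM in the DON libraries, against 50.7, 57.3 and 55.1 FPKM in the vehicle libraries (log2 fold change 0.49 ± 0.09 SE, limma adjusted p = 0.00508), and every DON value was the higher one.

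The most abundant hnRNP gene per length was HNRNPA1, which acts against SR proteins at 5′ splice sites. It had 435, 449 and 441 FPKM in the DON libraries, against 426, 452 and 412 FPKM in the vehicle libraries, and the groups overlapped (limma adjusted p = 0.717). Its copies make that value uncertain. The intronless copy HNRNPA1L2 averaged 1.91 ± 0.169 FPKM in DON and 1.7 ± 0.427 FPKM in vehicle (SD, n = 3 each), and the pseudogene row HNRNPA1P10, not a member, had 286, 108 and 64.3 FPKM in the DON libraries, against 126, 175 and 0.01 FPKM in the vehicle libraries. The pseudogene row thus varied widely within both groups, while HNRNPA1 lay within 412 to 452 FPKM over the 6 libraries. HNRNPD, or AUF1, which binds AU-rich elements, had 104, 106 and 104 FPKM in the DON libraries, against 94, 95.6 and 96.3 FPKM in the vehicle libraries (limma adjusted p = 0.169). Its groups did not overlap, but the test did not pass. HNRNPH1, which binds G-runs, had 190.5, 189 and 183 FPKM in the DON libraries, against 167, 174 and 159 FPKM in the vehicle libraries (limma adjusted p = 0.121). HNRNPF, its relative, had 151, 188 and 192 FPKM in the DON libraries, against 158 and 211 FPKM in vehicle 2 and 3, with no value in vehicle 1. A fit on those 5 values gave no call (log2 fold change -0.06 ± 0.17 SE, limma adjusted p = 0.822, where 38.9% of 11496 genes were called). HNRNPUL1, a relative of HNRNPU, had 39.5, 37.8 and 40.7 FPKM in the DON libraries, against 43.5, 45.3 and 47.4 FPKM in the vehicle libraries (limma adjusted p = 0.0797). HNRNPUL2 had 40.9, 44.9 and 50.7 FPKM in the DON libraries, against 30.8, 38.4 and 40.4 FPKM in the vehicle libraries (limma adjusted p = 0.0994). Neither pair of groups overlapped, with HNRNPUL1 the lower and HNRNPUL2 the higher in DON, and neither passed the test. HNRNPUL2 overlaps the read-through row HNRNPUL2-BSCL2, which had 54.5, 30.4 and 19.8 FPKM in the DON libraries, against 50.4, 59.1 and 26.2 FPKM in the vehicle libraries, so reads could be split between them. HNRNPC, HNRNPK and HNRNPA0 had negative log2 fold changes of -0.32, -0.27 and -0.29, at adjusted p of 0.0802, 0.0886 and 0.121. HNRNPH3 and HNRNPM, at -0.03 and -0.12, overlapped between the groups. The HNRNPC-like rows HNRNPCL1, HNRNPCL2, HNRNPCL3 and HNRNPCL4 stayed at or below 0.17 FPKM.

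**Figure D3:**
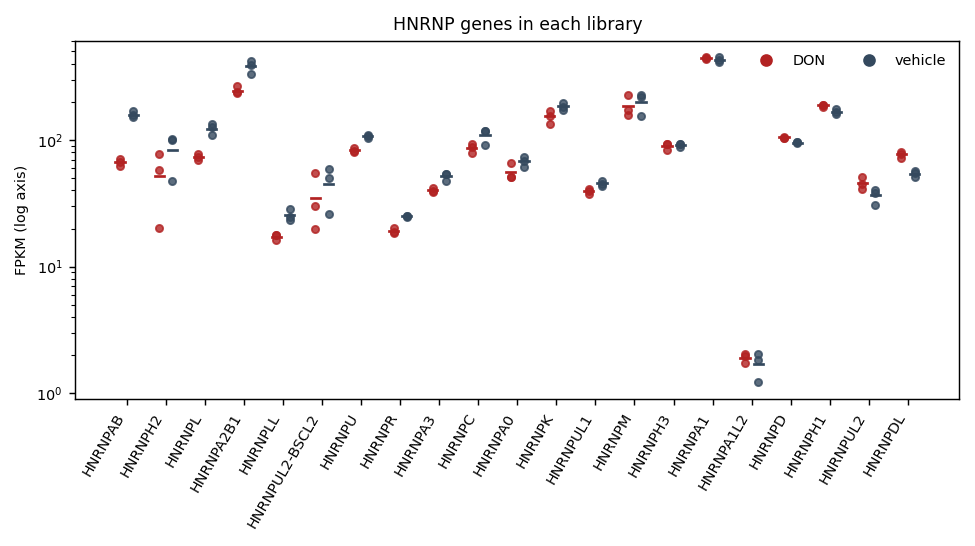
FPKM (log axis) of the 21 tested HNRNP genes in each DON and vehicle library, ordered by log2 fold change, with bars at the group means (3 libraries per group). HNRNPAB, HNRNPL and HNRNPA2B1 are lower in all 3 DON libraries, HNRNPDL is higher in all 3, and HNRNPH2 and HNRNPUL2-BSCL2 spread widely within both groups.

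In the U2 particle, subunits of the SF3B complex went both ways. SF3B3, the large scaffold subunit, had 15.7, 14.5 and 13.8 FPKM in the DON libraries, against 22.9, 25.9 and 21.6 FPKM in the vehicle libraries. The DON values were all lower (log2 fold change -0.64 ± 0.10 SE, limma adjusted p = 0.00288). SF3B5, the smallest subunit, had 138, 127 and 107 FPKM in the DON libraries, against 85.8, 76.5 and 70.7 FPKM in the vehicle libraries, with every DON value higher (log2 fold change 0.67 ± 0.12 SE, limma adjusted p = 0.00605). SF3B6, also called p14, contacts the branch point adenosine and had 240.5, 269.8 and 239.5 FPKM in the DON libraries, against 197, 203 and 202 FPKM in the vehicle libraries (log2 fold change 0.31 ± 0.08 SE, limma adjusted p = 0.0231). The call of SF3B6 was lost without DON 2 (adjusted p = 0.105), vehicle 1 (adjusted p = 0.0756) or vehicle 2 (adjusted p = 0.0659). SF3B1, the subunit that clamps the branch site and is mutated in several cancers, had 95.1, 109.9 and 111 FPKM in the DON libraries, against 107, 112 and 120.2 FPKM in the vehicle libraries, and its groups overlapped (limma adjusted p = 0.413). SF3B2 averaged 112 ± 16.1 FPKM in DON and 91.8 ± 11.7 FPKM in vehicle and SF3B4 27.6 ± 6.41 FPKM in DON and 31.5 ± 9.09 FPKM in vehicle (SD, n = 3 each), also with overlap. The SF3A proteins form the other complex of the mature U2 particle. SF3A1 had 14.5, 17.8 and 15.9 FPKM in the DON libraries, against 14.3, 14.1 and 14.5 FPKM in the vehicle libraries, a narrow gap without overlap (limma adjusted p = 0.246). SF3A3, the most abundant of the 3 per length, had 49.4, 48.4 and 42.6 FPKM in the DON libraries, against 42.9, 37.3 and 34 FPKM in the vehicle libraries, with overlap (limma adjusted p = 0.075). SF3A2 averaged 26.3 ± 1.32 FPKM in DON and 24.1 ± 2.72 FPKM in vehicle (SD, n = 3 each; limma adjusted p = 0.368). No SF3A gene passed in that fit. SF3A3 passed as higher without vehicle 1 (adjusted p = 0.0459) and with the split term (adjusted p = 0.0113), and SF3A2 with the GC correction (adjusted p = 0.0484).

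Of the U2AF genes, the large subunit fell. U2AF2, which binds the pyrimidine tract, had 28.4, 26.7 and 25.7 FPKM in the DON libraries, against 38.4, 39.3 and 34.3 FPKM in the vehicle libraries (log2 fold change -0.45 ± 0.09 SE, limma adjusted p = 0.0074). Its partner U2AF1, which reads the AG of the 3′ splice site, had 144, 121 and 116 FPKM in the DON libraries, against 123, 137 and 104 FPKM in the vehicle libraries, with overlapping groups (limma adjusted p = 0.709). Newer annotations list a near-identical copy of U2AF1 on the same chromosome. The deposited values were made on hg19, and whether such a copy bears on the U2AF1 value was not tested. U2AF1L4, a shorter relative, averaged 2.53 ± 0.439 FPKM in DON and 3.47 ± 0.451 FPKM in vehicle (SD, n = 3 each; adjusted p = 0.0929).

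The epithelial splicing regulators moved in opposite directions. ESRP1 and ESRP2 favour the epithelial isoforms of FGFR2, CD44, CTNND1 and other transcripts. ESRP1 had 17.5, 17.9 and 18.5 FPKM in the DON libraries, against 8.17, 8.21 and 9.33 FPKM in the vehicle libraries. It was 2.1-fold higher in DON with no overlap (log2 fold change 0.99 ± 0.09 SE, limma adjusted p = 0.000299). ESRP2 had 2.65, 2.77 and 2.95 FPKM in the DON libraries, against 3.84, 4.52 and 3.86 FPKM in the vehicle libraries and was lower in each DON library (log2 fold change -0.42 ± 0.10 SE, limma adjusted p = 0.019). The call of ESRP2 was lost without DON 2 (adjusted p = 0.0754), DON 3 (adjusted p = 0.0511) or vehicle 2 (adjusted p = 0.0674), with the GC correction (adjusted p = 0.148) and without a filter (adjusted p = 0.0528). The call of ESRP1 held under every alternative run. Beside these genes, 0 of the 7 tested epithelial markers rose and 1 fell, CLDN4, and of the 3 tested mesenchymal markers 1 rose, SNAI2, at 29.7 ± 5.63 FPKM in DON and 13.2 ± 1.18 FPKM in vehicle (SD, n = 3 each). KRT8 and KRT18 held failure marks and were neither tested nor summed. KRT8 had 1294 FPKM in DON 1, against 3238 and 3087 FPKM in vehicle 1 and 2. KRT18 had 2531 FPKM in DON 1, against 3454 and 3669 FPKM in vehicle 1 and 2. The summed level of the 8 epithelial markers with a value in every library ranged from 3025 to 4205 FPKM in DON and from 3516 to 4552 FPKM in vehicle. For the 10 mesenchymal markers it ranged from 1091 to 1391 FPKM in DON and from 1033 to 1284 FPKM in vehicle, with TWIST1 at the floor throughout. The 8 immune and endothelial markers summed to 76.3 to 112 FPKM in DON and 209 to 329 FPKM in vehicle, nearly all of it LYZ, which fell. The part of these markers in the change of ESRP1 and ESRP2 was not tested.

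Among the muscleblind-like genes, which promote the splicing patterns of differentiated cells, MBNL2 rose. It had 22.9, 31.1 and 37.9 FPKM in the DON libraries, against 13.1, 16.6 and 19.4 FPKM in the vehicle libraries. Each DON value lay above each vehicle value, but both groups spread widely (log2 fold change 0.85 ± 0.21 SE, limma adjusted p = 0.0169). The call was lost without DON 2 (adjusted p = 0.0618) or vehicle 1 (adjusted p = 0.0548), and without a filter on low values (adjusted p = 0.11). MBNL1, the most abundant of the 3, had 33.7, 40.7 and 45.6 FPKM in the DON libraries, against 35.7, 35.3 and 43.7 FPKM in the vehicle libraries, and MBNL3 averaged 2.54 ± 0.152 FPKM in DON and 2.61 ± 0.487 FPKM in vehicle (SD, n = 3 each). Neither passed, at adjusted p of 0.758 and 0.908. CELF1, which binds GU-rich elements and counteracts MBNL proteins at some exons, had 36.4, 33 and 34.7 FPKM in the DON libraries, against 31.9, 29.9 and 28.1 FPKM in the vehicle libraries (limma adjusted p = 0.0986). CELF2, CELF3, CELF4, CELF5 and CELF6, several of them neuronal or muscle genes, stayed at or below 0.75 FPKM. Of these, CELF2 had 0.0188, 0.0129 and 0.01 FPKM in the DON libraries, against 0.0959, 0.0719 and 0.0135 FPKM in the vehicle libraries. PTBP1, the polypyrimidine tract binding protein of non-neuronal cells, had 69.5, 79.6 and 89.2 FPKM in the DON libraries, against 88.6, 86.2 and 106 FPKM in the vehicle libraries, with overlap (adjusted p = 0.176). PTBP3 had 23.5, 26.4 and 29.2 FPKM in the DON libraries, against 30.8, 24 and 28.2 FPKM in the vehicle libraries, also with overlap (adjusted p = 0.708). The neuronal relative PTBP2 averaged 3.2 ± 0.306 FPKM in DON and 3.86 ± 0.813 FPKM in vehicle (SD, n = 3 each; adjusted p = 0.331).

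**Figure D4:**
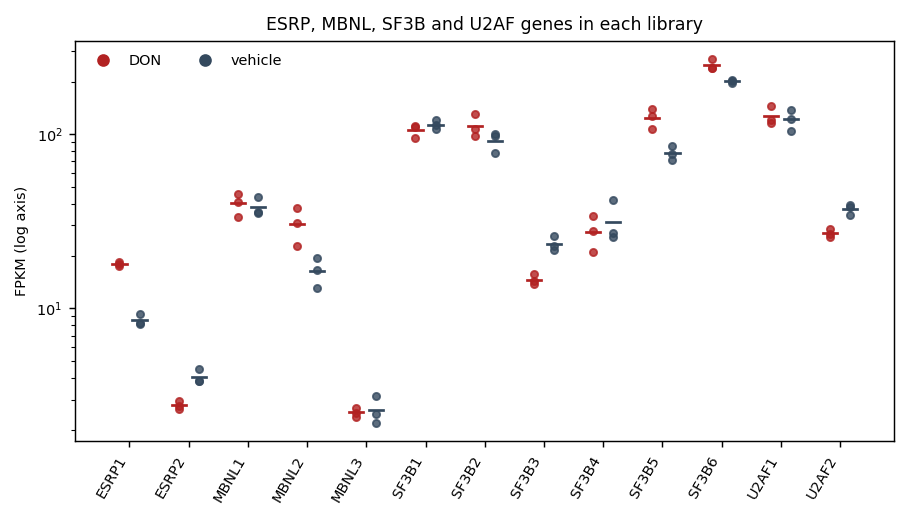
FPKM (log axis) of ESRP, MBNL, SF3B and U2AF genes in each DON and vehicle library, with bars at the group means (3 libraries per group). ESRP1, MBNL2, SF3B5 and SF3B6 are higher in all 3 DON libraries, and ESRP2, SF3B3 and U2AF2 are lower in all 3.

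Summed over the 63 members with a value in every library, splicing factor RNA amounted to 4073, 3914 and 3785 FPKM in the DON libraries, against 4559.6, 4681 and 4201 FPKM in the vehicle libraries. Per library this was 0.716% to 0.731% of all FPKM in DON and 0.794% to 0.855% in vehicle. The 12 SRSF genes summed to 765, 693 and 664 FPKM in the DON libraries, against 1042, 1027 and 911 FPKM in the vehicle libraries. Their DON mean was 71.2% of the vehicle mean, and the groups did not overlap. The 25 HNRNP genes without HNRNPF summed to 2189, 2086 and 2023 FPKM in the DON libraries, against 2521, 2639 and 2294 FPKM in the vehicle libraries, a DON mean of 84.5% of vehicle. Higher sums in every DON library were found for SF3A (117% of the vehicle mean), SF3B (118%), CELF (114%) and ESRP (164%). The sums of U2AF (96.6%), MBNL (128%) and PTBP (87%) overlapped between the groups. These sums rest mostly on a few abundant genes, such as SRSF9, SRSF3 and SRSF2 in their family and SF3B6 in SF3B. FPKM is relative to all mapped fragments, so less RNA of these genes per cell and more RNA of other genes cannot be told apart.

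**Figure D5:**
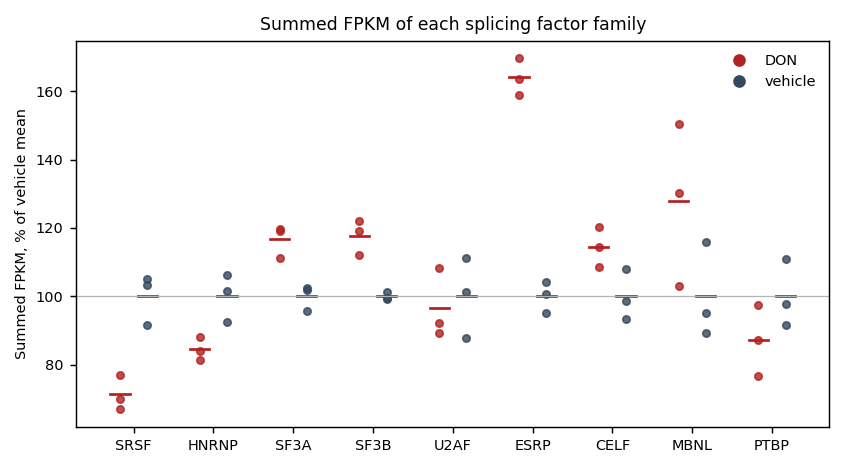
Summed FPKM of each family in each library as a percentage of the vehicle mean, with bars at the group means (3 libraries per group). SRSF and HNRNP lie below 100% in every DON library, SF3A, SF3B, ESRP and CELF lie above it, and U2AF, MBNL and PTBP overlap between DON and vehicle.

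Relatives and partners were then set against each other within a library, as ratios of their FPKM, for 11 pairs. With 3 libraries per group an exact permutation test cannot give a two-sided p below 0.10, which is 0.138 after adjustment over the 11 pairs where 8 pairs share it. The ratio of ESRP1 to ESRP2 was 6.57, 6.46 and 6.28 in the DON libraries, against 2.13, 1.82 and 2.42 in the vehicle libraries. ESRP1 was thus the more abundant of the pair in all 6 libraries, and by a wider margin with DON (difference of log2(FPKM + 1) ratios 1.41, exact permutation p = 0.10). The ratio of SRSF1 to SRSF2 was 0.893, 0.999 and 0.983 in the DON libraries, against 0.35, 0.368 and 0.373 in the vehicle libraries. SRSF2 was the more abundant gene in every vehicle library, and the pair stood close to parity in DON (log2 difference 1.38, exact permutation p = 0.10). The ratio of MBNL1 to MBNL2 was 1.47, 1.31 and 1.2 in the DON libraries, against 2.73, 2.13 and 2.25 in the vehicle libraries (log2 difference -0.79). The ratio of HNRNPA1 to HNRNPA2B1 was 1.64, 1.89 and 1.88 in the DON libraries, against 1.08, 1.08 and 1.24 in the vehicle libraries, so the near parity of vehicle was not seen in DON (log2 difference 0.67). U2AF1 over U2AF2 was 5.08, 4.51 and 4.52 in the DON libraries, against 3.19, 3.5 and 3.03 in the vehicle libraries, SF3B1 over SF3B3 was 6.06, 7.6 and 8.01 in the DON libraries, against 4.66, 4.33 and 5.56 in the vehicle libraries, and HNRNPUL1 over HNRNPUL2 was 0.965, 0.841 and 0.803 in the DON libraries, against 1.41, 1.18 and 1.17 in the vehicle libraries. Those ratios did not overlap between the groups, each at the smallest exact p of 0.10, and neither did CELF1 over CELF2 on the log2(FPKM + 1) scale, where CELF2 lay near the floor. As plain FPKM the CELF1 to CELF2 ratios overlapped, at 1939 to 3472 in DON and 333 to 2090 in vehicle. The share for pairs in general was not computed, and 51.5% of single tested genes did not overlap. Pairs with ESRP1, ESRP2, SRSF2, MBNL2, HNRNPA2B1, U2AF2 or SF3B3 hold a gene called above and partly restate that call. PTBP1 over PTBP3, SF3A1 over SF3A3 and HNRNPH1 over HNRNPF overlapped, with exact permutation p of 0.4, 0.4 and 0.6, or 0.44, 0.44 and 0.6 after adjustment.

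Libraries of the same group also differed from each other, and some members followed that difference. The second principal component of the tested genes, with 19.7% of the variance, set DON 1, vehicle 1 and vehicle 2 on one side and DON 2, DON 3 and vehicle 3 on the other. Each library's deviation from its group mean was correlated across genes, which are not independent replicates, with transcript GC content: Spearman's rho was 0.50, -0.42 and -0.41 in DON 1 to 3, and 0.23, 0.30 and -0.40 in vehicle 1 to 3. Its part in the members' values was not tested beyond the GC correction below. Coefficients of variation above 15% in both groups marked 6 members: HNRNPH2, HNRNPM, HNRNPUL2-BSCL2, MBNL2, SF3B4 and SRSF9. HNRNPH2 had 77.9, 57.8 and 20.03 FPKM in the DON libraries, against 100.5, 102 and 47.8 FPKM in the vehicle libraries. Within each group the lowest value was that of replicate 3, and the difference of log2(FPKM + 1) was -0.38 for DON 1 against vehicle 1 and 2, and -0.47 for DON 2 and 3 against vehicle 3. For SRSF9 the same differences were -0.0079 and 0.01, and for HNRNPM 0.03 and 0.07. MBNL2 differed by 0.60 and 0.79. Of the 23 tested members whose groups overlapped, 15 had the direction of their overall log2 fold change on both sides of the split. HNRNPM, MBNL1 and SRSF11 had 1 direction on both sides but the opposite one overall. The share over all tested genes is not given here. For SRSF2 the differences were -1.52 and -1.53, for SRSF7 -1.35 and -1.38, for HNRNPAB -1.30 and -1.28 and for ESRP1 1.01 and 0.90. In these genes, and in MBNL2, the groups did not overlap, which fixes the same sign on both sides in advance. Their shared direction is therefore no added support.

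Properties that the name rule did not use were read from the GENCODE 29 annotation, with no test. All 53 tested members matched a gene there. An annotated transcript of the nonsense-mediated decay class was present for 35 of them (66%), beside 42.2% of the 11265 tested genes that matched. All 11 tested SRSF genes had such a transcript, as did 14 of 21 HNRNP genes. The class was present for 13 of the 15 members called lower, for 3 of the 5 called higher and for 19 of the 33 not called. A retained-intron transcript was annotated for 67.9% of the tested members, beside 57.5% of the matched tested genes. It was annotated for 13 members called lower, 2 called higher and 21 not called. Members carry more annotated transcripts than other genes, with a median of 11 beside 8. The median GC content of the longest transcript was 39.9% for the members called lower, 42.8% for those called higher and 43.0% for those not called. It was 42.5% over all tested members and 48.3% over all matched genes. An added fit with a GC correction called 23 members, 6 higher and 17 lower, with 19 of the 20 original calls among them, and 4726 of all tested genes.

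To set promoters of genes with opposite changes side by side, the 250 bases before the annotated start are given for SRSF7 and HNRNPAB, which fell more than 2-fold, and for SF3B5, which rose. SRSF2, the member that fell furthest, had no promoter entry in the source used, and ESRP1, which rose furthest, is not shown. The sequences are RefSeq's on GRCh38.p14, a build other than the hg19 of the deposited values, and run 5′ to 3′ toward the start. Capitals mark matches on either strand to the 11 motifs searched, which are named after the sequences.
SRSF7, chr2:38751495-38751744, minus strand: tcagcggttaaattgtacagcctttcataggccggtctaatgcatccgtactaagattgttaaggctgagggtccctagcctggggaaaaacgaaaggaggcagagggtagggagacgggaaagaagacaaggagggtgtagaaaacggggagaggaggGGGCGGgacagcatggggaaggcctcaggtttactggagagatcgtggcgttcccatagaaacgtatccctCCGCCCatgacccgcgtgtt
HNRNPAB, chr5:178204283-178204532, plus strand: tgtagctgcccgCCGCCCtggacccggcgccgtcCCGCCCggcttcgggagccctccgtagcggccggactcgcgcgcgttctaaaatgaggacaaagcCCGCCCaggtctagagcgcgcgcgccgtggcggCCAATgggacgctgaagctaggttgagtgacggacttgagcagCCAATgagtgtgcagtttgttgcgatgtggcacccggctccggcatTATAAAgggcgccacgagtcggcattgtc
SF3B5, chr6:144095574-144095823, minus strand: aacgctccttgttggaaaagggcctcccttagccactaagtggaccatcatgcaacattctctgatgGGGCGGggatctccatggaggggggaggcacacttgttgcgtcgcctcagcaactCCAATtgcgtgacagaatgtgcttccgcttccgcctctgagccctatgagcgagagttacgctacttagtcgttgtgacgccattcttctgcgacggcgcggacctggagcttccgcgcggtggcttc
In SRSF7 the capitals are 2 GC boxes (GGGCGG), in HNRNPAB 3 GC boxes, 2 CCAAT boxes (CCAAT) and 1 TATA box (TATAAA), and in SF3B5 1 GC box and 1 CCAAT box. SRSF7 has a second annotated start, not shown. The median GC content was 62.8% for member promoters and 58% for all promoters, a set not limited to genes expressed here. Its part in the shares below was not tested. The GC box was present in 55.3% of the 94 promoters of 58 members and in 42.6% of all 35116 promoters of the same length. For the CCAAT box these shares were 37.2% and 32%, for the TATA box 9.57% and 10.7%. The composite element of ATF4 and C/EBP factors (TGATGNAA) was in 1.06% of the member promoters and 3.14% of all. The ETS core (CCGGAAG) was in 16% of the member promoters and 8.52% of all, and the E-box (CACGTG) in 10.6% and 6.34%. The cAMP response element (TGACGTCA) and the related letters TGACGCAA were in 1 member promoter each (1.06%), beside 1.65% and 0.478% of all promoters. The cores for NRF1, YY1 (AAGATGGCG) and E2F (TTTCGCGC) were in 0 of 94, beside 1.03%, 0.652% and 0.439% of all promoters. These matches are descriptions of letters in the window.

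The rest of the splicing machinery was counted in lists of genes that are not members. Of 36 tested proteins of the small nuclear ribonucleoprotein particles 4 rose and 5 fell (median log2 fold change -0.06). These counts turned on single libraries: all 5 lower limma calls were lost without DON 2, DON 3 or vehicle 1, or without a filter on low values, and 2 genes were called lower without vehicle 2. The higher calls numbered 1 without DON 2, and 2 without vehicle 2, without vehicle 3 or without the filter. SNRPB2 of the U2 particle was at 101 ± 2.87 FPKM in DON, against 60.1 ± 6.46 FPKM in vehicle, and SNRNP70 of the U1 particle at 38.4 ± 8.33 FPKM in DON, against 62.5 ± 8.23 FPKM in vehicle (SD, n = 3 each; limma adjusted p = 0.00161 and 0.0162). The core protein SNRPB and LSM4 had lower values too, at limma adjusted p of 0.0345 and 0.0347. Without DON 2, DON 3, vehicle 1 or vehicle 2 in turn, the adjusted p reached 0.114 for SNRPB, 0.109 for LSM4 and 0.0652 for SNRNP70, and none of the 3 passed. Of 42 tested helicases, catalytic-step proteins and further spliceosome factors, including SF1 and PUF60 of early intron recognition, 14 rose and 5 fell (median 0.25). The higher calls numbered 5 without DON 2, 9 without DON 3, 7 without vehicle 2 and 9 without the filter. The lower calls numbered 2 without DON 2 or vehicle 2, 3 without DON 3 or vehicle 1, and 1 without the filter. SF1, which binds the branch point before U2 and works with U2AF2, fell to 29.2 ± 3.95 FPKM in DON, against 50.9 ± 8.63 FPKM in vehicle (adjusted p = 0.00712). PUF60, which works beside U2AF, and the helicase DDX39B, known as UAP56, fell as well (adjusted p = 0.0168 and 0.00285), while BUD31 rose (adjusted p = 0.00684). The call of PUF60 was lost without DON 2, vehicle 1 or vehicle 2 (adjusted p up to 0.063), and those of PUF60 and SF1 without the filter.

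In a list drawn up around the kinases and phosphatase subunits of SR proteins, 1 of 15 tested genes rose and 2 fell (median -0.06). The list was not limited to these, and also held AKAP8, an anchoring protein, and CDK12. CLK1, which phosphorylates SR proteins, was at 57.9 ± 2.3 FPKM in DON, against 41.2 ± 3.57 FPKM in vehicle (SD, n = 3 each; limma adjusted p = 0.00662), and its relative CLK2 at 9.05 ± 0.823 FPKM in DON, against 13.3 ± 0.795 FPKM in vehicle (adjusted p = 0.00707). CDK12, a kinase of RNA polymerase II, was the other that fell, a call lost without DON 3 (adjusted p = 0.0512). Without vehicle 3, 3 genes of this list were called higher. Of 27 SR-related proteins 2 rose and 10 fell (median -0.25), against 1 and 5 without DON 2. LUC7L2, a U1-associated factor, was at 20.7 ± 6.63 FPKM in DON, against 47.6 ± 5.1 FPKM in vehicle (adjusted p = 0.00562), and RBM25, RSRC2 and SCAF8 fell by less. Without the filter LUC7L2 did not pass. Of 40 other alternative splicing regulators 8 rose and 12 fell (median -0.10). The higher calls numbered 3 without DON 2, 4 without DON 3, and 5 without vehicle 1, vehicle 2 or the filter. MSI2, an RNA-binding protein of progenitor cells, was at 3.59 ± 0.888 FPKM in DON, against 18.6 ± 2.21 FPKM in vehicle (adjusted p = 0.000211), and RAVER1, a partner of PTBP1, at 8.66 ± 0.919 FPKM in DON, against 18.4 ± 1.99 FPKM in vehicle. CIRBP, the cold-inducible RNA-binding protein, was at 159 ± 11.2 FPKM in DON, against 65.8 ± 9.71 FPKM in vehicle (adjusted p = 0.000455), and RBM4 rose to 44.7 ± 4.9 FPKM in DON, against 24.8 ± 5.99 FPKM in vehicle, a call lost without the filter. Of 18 genes of the exon junction complex and nonsense-mediated decay 6 rose and 2 fell (median 0.20). The higher calls numbered 2 without DON 2 and 3 without DON 3 or vehicle 1. UPF3B and MAGOH rose (adjusted p = 0.00265 and 0.0162, with the call of MAGOH lost without DON 2, vehicle 1, vehicle 2 or the filter), and SMG9 and UPF1, the central helicase of decay, fell (adjusted p = 0.0052 and 0.00787). The shares called in these lists ran from 20.00% to 50.00%, beside 38.9% of all tested genes.

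Depth and quality were judged from the table alone. Read counts are not part of an FPKM table, and the depth is unknown. Steps between low values put the relative depth of the libraries at 1.26 to 1.39 for DON, 1.69 for vehicle 2 and 1.29 for vehicle 3, taking vehicle 1 as the unit. FPKM sums ranged from 525199.7 to 556949.6. Tested members had a median coefficient of variation of 6.58% in DON and 9.76% in vehicle.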

How the data were processed

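The authors deposited 1 table of FPKM values per gene symbol and library. Reads were single, 75 bp, from strand-directed poly(A) libraries per the labels' protocols, and the submitters' processing notes name STAR and hg19. Which program computed FPKM, with what annotation and strand setting, is not given in the sources used here, so a gene and its antisense partner, or near-identical copies, may share reads. The lowest value was 0.01, and 72 cells in 41 rows held a failure mark; those rows were not tested.

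Values were compared as log2(FPKM + 1), which understates changes of low genes, in limma 3.58.1 (R 4.3.3) with an intensity trend, two-sided, over 11471 genes with at least 1 FPKM in 3 libraries, with Benjamini-Hochberg adjustment over all of them at 0.05. The fit was tested on simulated data whose noise was independent between genes and libraries. Those data lack the library split seen here, so they do not show how the calls behave under it. Fold values are ratios of mean FPKM. Ratios of relatives were tested by exact permutation (scipy 1.17.1). Tables and plots used Python 3.11.15, pandas 2.3.3, numpy 2.4.6 and matplotlib 3.10.9. GC content and transcript classes came from GENCODE 29 by symbol. Alternatives changed the scaling (median of ratios, or quantiles), the pseudocount (0.1), the filter (none, or 5 FPKM) and the trend (none), added a replicate block or a split term (DON 1, vehicle 1 and vehicle 2 against the rest, known from earlier results), kept rows with a failure mark, and included a GC correction chosen after seeing the data, and leaving out each library. Members, families, lists, pairs and the naming rule were chosen with earlier results of these data known. By that rule values per library are given for the 6 called members of each family with the largest change, its most abundant member and all members of pairs; in the other lists up to 4 called genes by size of change are named. Genes named besides were chosen after their values were seen.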

Additional observations from a re-analysis of the deposited data

How the results depend on the processing

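Of the 20 called members, 13 passed under every alternative that tested them: ESRP1, HNRNPA2B1, HNRNPAB, HNRNPDL, HNRNPL, HNRNPLL, SF3B3, SF3B5, SRSF10, SRSF2, SRSF6, SRSF7 and U2AF2. The number of members called ranged from 14 to 22 when 1 library was left out, with 3 to 5 higher and 11 to 17 lower. Without DON replicate 2, 3 members were called higher. For all tested genes that range was 2697 to 4656, the lowest without DON replicate 2. Without a filter on low values 2942 of all genes were called. With a term for the library split, known from these data, 33 members were called, 9 higher and 24 lower, and 6031 of all genes. The 13 gained were CELF1, HNRNPA0, HNRNPC, HNRNPH1, HNRNPK, HNRNPUL1, PTBP1, SF3A3, SF3B1, SF3B2, SF3B4, SRSF1 and SRSF4. Other gains were HNRNPK, SF3A2, SRSF1 and SRSF4 with the GC correction, HNRNPD and SRSF1 without a filter, HNRNPC with quantile normalization, HNRNPA0 without DON replicate 1, SF3A3 without vehicle replicate 1, and HNRNPC and SRSF4 without vehicle replicate 3. With a replicate block 26 were called, 8 higher and 18 lower, and no call was lost, while the calls over all tested genes went to 5414, against 4459 without it. HNRNPH2 was among the 6 members gained (adjusted p = 0.00853 with the block, against 0.26 without it), with HNRNPC, HNRNPK, HNRNPUL2, SF3A3 and SF3B2. Same-numbered libraries correlated at 0.25, -0.18 and 0.50 in their deviations from group means, beside -0.57 to 0.39 for libraries of different numbers. With so few libraries these values cannot settle whether the numbers pair them, and the main fit used no pairing. The SRSF family had 0 members called higher in any fit, and the count lower ran from 4 to 7. Scaling moved the median of all genes by less than 0.1.

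Direction turned for the following values, none of them called. Log2 fold changes stood at -0.024 for HNRNPA1, -0.038 for MBNL1, -0.10 for SRSF11, -0.032 for SRSF8 with the GC correction. They stood at 0.050 for HNRNPM, -0.047 for MBNL1, -0.054 for SRSF11, 0.056 for SRSF5, 0.0023 for SRSF9 with the split term. They stood at 0.061 for MBNL3 with quantile normalization. They stood at 0.0035 for SRSF5 with median-of-ratios scaling. With 1 library left out, turning values ranged from -0.014 to 0.21 for HNRNPA1L2, -0.060 to 0.018 for HNRNPH3, -0.038 to 0.18 for MBNL1, -0.11 to 0.082 for MBNL3, -0.16 to 0.014 for PTBP3, -0.33 to 0.044 for SF3B4, -0.037 to 0.098 for SRSF11, -0.10 to 0.047 for SRSF5, -0.0018 to 0.047 for SRSF8, -0.037 to 0.16 for U2AF1, -0.048 to 0.50 for the log2 ratio HNRNPH1/HNRNPF, 90.7 to 102% of vehicle for the U2AF sum. The cause was not tested. No counting error can be given, since FPKM holds no read counts. The pseudocount shrinks changes of low members such as HNRNPA1L2, MBNL3 and U2AF1L4.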
